A study of Homo sapiens with 18 samples.

Results

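The earliest response of A549 cells to sodium propionate (SP) was followed by RNA-seq, setting the 3 SP 3 h libraries against the 3 Control 24 h libraries of the same count table, 6 of the 18 libraries of the series. A549 is an established non-small cell lung cancer line of 1 donor, labelled wild type (WT) in all groups and grown in high glucose medium with serum. The treated cells received 5 mM SP for 3 h and the controls received no treatment and are labelled 24 h, so the treatment and the time in culture cannot be told apart in this comparison, and no control of 3 h is among the libraries used here. The study asked whether a short-chain fatty acid holds lung cancer cells in an epithelial state and whether histone acetylation takes part, and the 3 h libraries show the transcripts that moved first. The SP 24 h libraries of the same table and the SP 3 days and Control 3 days libraries of a separate table, 3 of each and at the same dose, served only for comparison. Of 61541 genes listed, 17377 had enough reads to be tested. Nothing in the labels says that the replicates came from separate cultures, so the p-values measure the spread between these libraries, which may be technical. In such bulk samples, fewer cells of a kind and less RNA per cell cannot be told apart.

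Propionate is a short-chain fatty acid made by gut bacteria that fibre feeds. It enters cells through monocarboxylate transporters, is converted to propionyl-CoA in mitochondria and, like butanoate, inhibits class I and II histone deacetylases, the enzymes that take acetyl groups off histone tails. Acetyl groups on lysine 27 of histone H3 mark active promoters and enhancers, are written by p300 and CBP and are read by bromodomain proteins, which help to release paused RNA polymerase. Poised or silenced genes are among those known to respond when deacetylases are blocked. Immediate early genes are a separate class that is transcribed within minutes of almost any stimulus, without new protein. In lung epithelium, junction proteins and factors such as GRHL1 and OVOL2 keep the epithelial state, and SNAI1, ZEB1 and their relatives repress it during the epithelial-to-mesenchymal transition (EMT).

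The libraries held 18568469 to 28773051 assigned reads in Control 24 h and 14187401 to 30553986 in SP 3 h, and no pair of libraries held identical counts. The A549 markers fixed for the check (KRT8, KRT18, ALDH1A1 and the aldo-keto reductases among them) were all abundant, CDKN2A and CDKN2B, which this line has lost, had 0 reads in all 6 libraries, and of 28 markers of other cell types 22 stayed under 1 CPM (reads per 1e6 assigned reads) in all 6. Of 18 genes of alveolar type II cells, with which this line is often compared, 11 stayed under 1 CPM in all 6 libraries. The surfactant genes SFTPA1 and SFTPA2 were among the 3 with 0 reads in all 6. Other members were expressed, among them ABCA3 (62.5 to 132 CPM) and LPCAT1 (139 to 237 CPM). Principal components were taken over all 9 libraries fitted together, SP 24 h included. The first (52.1% of the variance) set SP 24 h apart, at 41.1 to 68.1. On it SP 3 h (-33.2 to 12.2) and Control 24 h (-75.2 to -20.8) overlapped. The second (16.7%) separated these 2 groups, with SP 3 h at -43.4 to -31.5 and Control 24 h at 20.03 to 35.5. The libraries also differed in how their levels followed the GC content of the transcripts, with rank correlations across genes of -0.50, -0.43 and 0.28 in the controls and -0.03, 0.21 and -0.47 after SP. The part of this trend in the results was not tested on its own; values of a fit that corrects GC content and length together stand beside the counts it changed.

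At 3 h, 1285 genes were higher and 714 were lower than in untreated cells at an adjusted p under 0.05 (edgeR's quasi-likelihood test with Benjamini-Hochberg adjustment), 7.39% and 4.11% of the genes tested, and 64.3% of the changed genes were higher. A rise or fall of at least 2-fold was called in 635 and 168 genes (3.65% and 0.967%). No gene passed the thresholds of the study, an adjusted p under 0.0001 with a 2-fold change, by edgeR, whose smallest adjusted p was 0.000104, while 4367 genes were at an unadjusted p under 0.05 and DESeq2 put 297 higher and 118 lower past the same thresholds. The number of falls depended on a correction for GC content and length: with each library's trends in both removed together, 1486 genes were higher and 1599 lower, so that 48.2% were higher, and DESeq2 gave 57.7%. Without SP 3 h replicate 2, the most deeply sequenced of the 6, 621 genes were higher and 320 lower, and the count of rises was 759 without Control 24 h replicate 1, 807 without Control 24 h replicate 2 and 845 (with 451 falls) without SP 3 h replicate 1. Fitting only the 2 groups compared gave 624 genes higher and 349 lower. In every fit that left out 1 library, 582 of the 1285 rises (45.3%) and 286 of the 714 falls (40.1%) were still called. Protein-coding genes made up 91.1% of the genes that rose and 89.1% of those that fell, against 77% of those that did not pass the test.

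**Figure D1:**
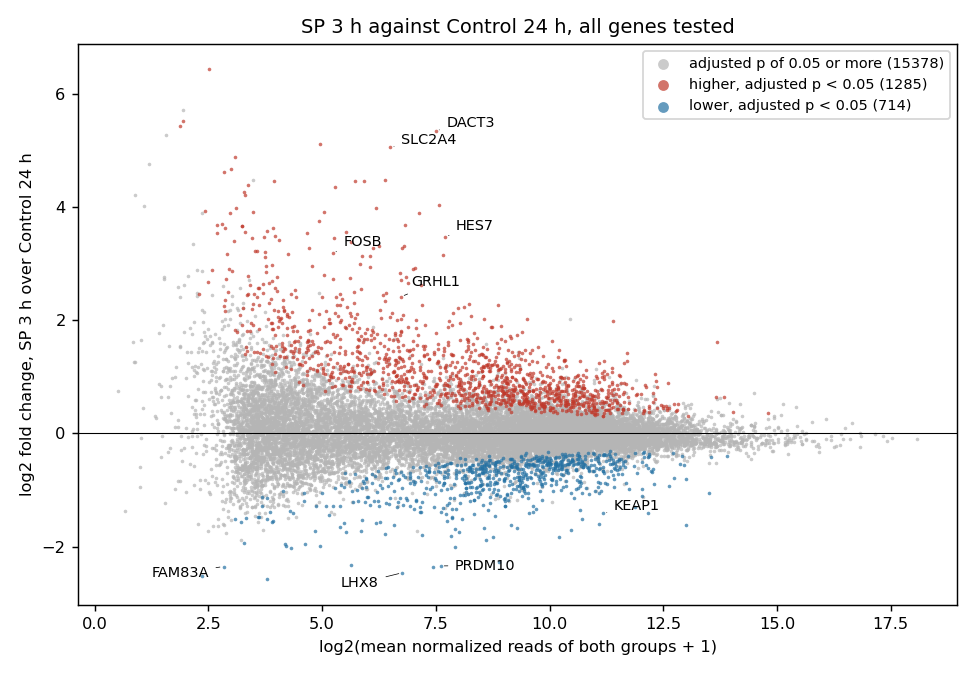
Each point is 1 of the 17377 genes tested, with the log2 of its mean normalized reads over both groups plus 1 on the x axis and its log2 fold change, SP 3 h over Control 24 h, on the y axis. Red points (1285) were higher and blue points (714) lower at an adjusted p under 0.05; the rises reach further from 0 than the falls, up to 5.35 for DACT3 among the labelled genes with over 100 reads against -2.46 for LHX8.

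The 12 largest rises were named by fold change among genes with a mean of at least 100 reads in either group. That choice favours genes with few reads in the controls, so their low starting level follows from it in part. Values are normalized reads per library, scaled to the mean library of the table, and the fold changes are log2 values of SP 3 h over Control 24 h with their standard errors. DACT3, an antagonist of Wnt and TGF-β signalling that is silenced by histone marks in several cancers, had 6.91, 5.52 and 11.9 reads in the controls and 252, 513 and 288 after SP. Its fold change was 5.35 ± 0.41 (adjusted p = 0.000213), with the highest treated library at replicate 2. SLC2A4, the insulin-responsive glucose transporter GLUT4, went from 6.91, 4.14 and 4.58 reads to 149, 230 and 143 (5.06 ± 0.39, adjusted p = 0.000234). ICAM5, an adhesion molecule of neurons, went from 4.15, 5.52 and 10.1 to 184, 158 and 135 reads (4.48 ± 0.30, adjusted p = 0.000104). NGFR, the low-affinity neurotrophin receptor, was at 4.15, 6.90 and 4.58 reads in the controls and more variable after SP, at 68.1, 161 and 113 (4.47 ± 0.54, adjusted p = 0.00146).

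The other 8 of the 12 largest rises ran from 4.04 to 3.28 and covered unlike functions. BMF, a BH3-only activator of apoptosis, rose by 4.04 ± 0.43, from 15.6 to 26.2 reads in the controls to 272 to 469 after SP. The muscarinic receptor gene CHRM4 (3.99), the neuronal splicing factor gene NOVA2 (3.90), the synaptic vesicle GTPase gene RAB3A (3.68) and ARC (3.32), an activity-regulated gene of synapses, are known from neurons. HES7, a transcriptional repressor of the Notch-driven segmentation clock, went from 26.3, 30.3 and 43.9 to 438, 347 and 361 reads (3.48 ± 0.21, adjusted p = 0.000104). PHOSPHO1, a phosphatase of bone mineralization, and GIPR, the receptor of an incretin hormone, rose by 3.32 and 3.28. The rule asked for groups that do not overlap, which held for 27.3% of all genes tested, so nothing is read from their separation. Each of the 12 passed the test in all 9 fits that left out 1 library. Exons of BMF, NGFR, RAB3A, CHRM4 and SLC2A4 share 49 to 924 bases with a neighbouring or antisense gene, and the strand setting of the counting is not given in the sources used here, so reads in these stretches cannot be assigned to 1 gene.

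**Figure D2:**
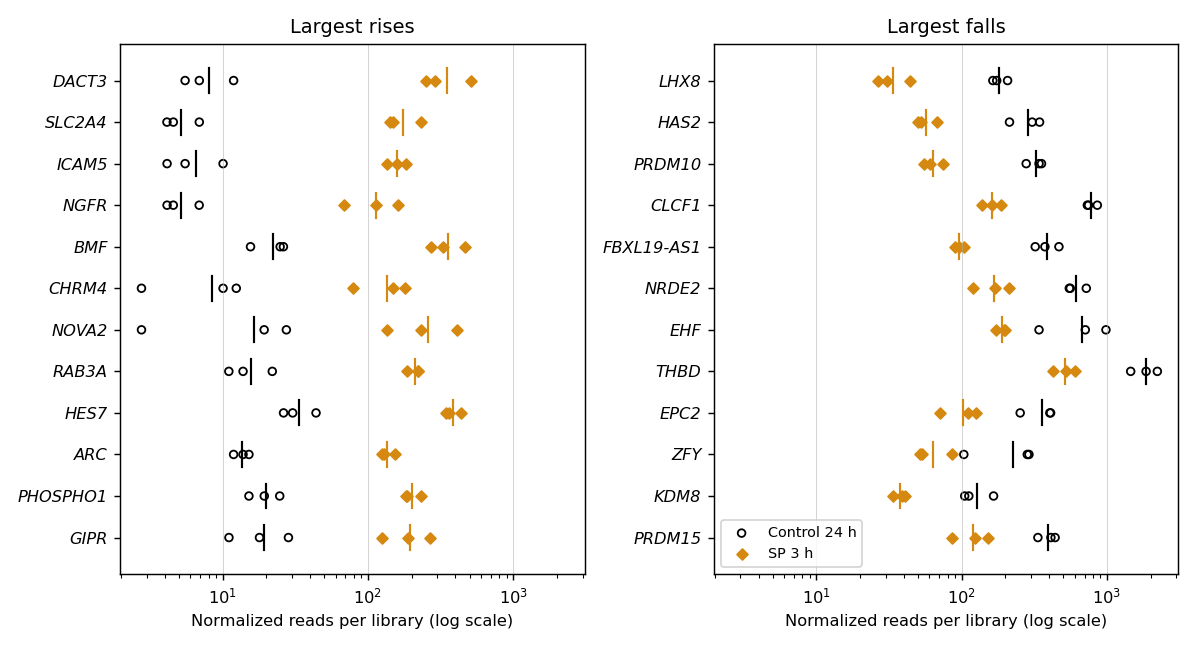
Normalized reads in each library (log scale) of the 12 genes with the largest rises (left) and the 12 with the largest falls (right); open circles are the 3 Control 24 h libraries, filled diamonds the 3 SP 3 h libraries, and vertical bars the group means. All genes shown were chosen for groups that do not overlap and for a group mean of at least 100 reads. The controls of the rises lie at 2.76 to 43.9 reads and the treated libraries of the falls at 26.6 to 605 reads. These levels follow in part from the choice.

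The 12 largest falls were named among genes with a mean of at least 100 reads in either group, a condition that a fall can meet only through its controls, so their starting level follows from the choice. LHX8, a homeobox transcription factor gene, fell from 174, 207 and 164 reads to 44.2, 30.5 and 26.6 (-2.46 ± 0.24, adjusted p = 0.000699). HAS2, the hyaluronan synthase whose product is a matrix polymer of mesenchymal cells, went from 305, 343 and 213 to 68.1, 49.9 and 52.1 reads (-2.36 ± 0.29, adjusted p = 0.00158). PRDM10, a zinc finger regulator of transcription, fell from 278, 341 and 354 to 60.8, 74.5 and 55.3 (-2.34 ± 0.17, adjusted p = 0.000171), and CLCF1, a cytokine of the IL-6 family, from 746, 732 and 857 to 186, 161 and 137 (-2.28 ± 0.17, adjusted p = 0.000201). These genes code for 2 regulators of transcription, an enzyme and a secreted ligand.

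Among the remaining falls were several regulators of chromatin and transcription. EPC2, a scaffold subunit of the TIP60 acetyltransferase complex, fell by 1.81 on the log2 scale, KDM8, a JmjC-domain dioxygenase, by 1.77, PRDM15, a relative of PRDM10, by 1.74 and NRDE2, an RNA-silencing and nuclear RNA decay factor, by 1.88. EHF, an epithelial ETS factor, fell by 1.84 and THBD, the thrombin receptor thrombomodulin, by 1.83, the latter from 1455 to 2220 reads in the controls to 424 to 605 after SP. The antisense transcript FBXL19-AS1 fell by 2.003. Exons of LHX8, HAS2, CLCF1, FBXL19-AS1 and KDM8 overlap another gene by 61 to 585 bases, and those of NRDE2 overlap PSMC1 by 4667 of 17393 bases. Of the 12 falls, 11 passed the test in all 9 fits that left out 1 library. The exception was ZFY, a zinc finger gene with control libraries far apart (adjusted p = 0.0437), whose call held in 3 of the 9.

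The 10 genes with the smallest adjusted p added others that were not among the largest changes, of which 3 are described. CORO1A, an actin regulator best known from blood cells, rose by 2.29 ± 0.14 (97.0 to 108 against 416 to 554 reads), and EFNA3, an ephrin ligand, by 3.16 ± 0.20 (36.6 to 47.0 against 315 to 446 reads). GRHL1, a grainyhead factor of epithelial cells, had 33.2, 33.1 and 32.9 reads in the controls and 190, 165 and 178 after SP (2.42 ± 0.16). All 3 passed the test in all 9 fits that left out 1 library.

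The promoters of 4 of these genes are shown as examples that differ in GC content and in the number of GC boxes. They do not stand for all rises or falls, and 65.8% of the falls with a RefSeq promoter held a GC box. The sequence of each is the 250 bases before the transcript start, 5′ to 3′ on the strand of the gene, from RefSeq (GRCh38.p14), and capitals mark the GC box, GGGCGG or its reverse complement CCGCCC, the core of the site that SP1-family factors bind. DACT3 (chr19:46661183-46661432, minus strand), HES7 (chr17:8124107-8124356, minus strand) and GRHL1 (chr2:9951443-9951692, plus strand) rose, and PRDM10 (chr11:130002836-130003085, minus strand) fell.
DACT3: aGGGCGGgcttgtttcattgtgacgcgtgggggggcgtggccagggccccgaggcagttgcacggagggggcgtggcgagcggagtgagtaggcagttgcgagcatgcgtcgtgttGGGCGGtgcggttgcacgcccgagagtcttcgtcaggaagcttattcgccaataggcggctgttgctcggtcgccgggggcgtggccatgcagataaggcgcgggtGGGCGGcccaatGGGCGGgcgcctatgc
HES7: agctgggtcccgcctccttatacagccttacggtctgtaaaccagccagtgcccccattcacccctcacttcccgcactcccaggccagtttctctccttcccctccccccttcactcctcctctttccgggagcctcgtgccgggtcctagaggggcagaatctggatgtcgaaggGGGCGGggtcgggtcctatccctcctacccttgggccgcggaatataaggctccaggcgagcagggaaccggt
GRHL1: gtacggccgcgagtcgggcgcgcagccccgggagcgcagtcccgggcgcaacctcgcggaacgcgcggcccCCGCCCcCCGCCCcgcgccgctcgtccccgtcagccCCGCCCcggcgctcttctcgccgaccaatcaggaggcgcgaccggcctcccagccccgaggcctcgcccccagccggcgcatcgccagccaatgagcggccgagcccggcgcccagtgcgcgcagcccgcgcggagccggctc
PRDM10: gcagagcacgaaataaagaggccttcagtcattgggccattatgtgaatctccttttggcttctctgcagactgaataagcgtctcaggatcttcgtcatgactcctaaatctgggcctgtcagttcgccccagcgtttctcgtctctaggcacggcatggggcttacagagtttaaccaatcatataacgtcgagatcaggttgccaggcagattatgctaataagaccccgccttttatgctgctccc
The DACT3 promoter held 4 GC boxes, that of GRHL1 3, that of HES7 1 and that of PRDM10 0. GC content was 68.4% in DACT3, 81.6% in GRHL1, 63.2% in HES7 and 49.2% in PRDM10.

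Over all genes with a RefSeq promoter (11942 of the 17377 tested), counting the 250 bases before and 50 after the start on both strands, the GC box was found in 80.4% of the 937 genes that rose, 65.8% of the 562 that fell and 69.1% of all tested, against 44.6% of all 27305 promoters in the table. The median promoter GC content was 69% in the genes that rose and 64.67% in those that fell, against 65.33% in all tested. The CCAAT box (CCAAT or ATTGG) was in 41.2% of the genes that rose and 33.8% of those that fell, and the AP-1 site (TGACTCA or TGAGTCA), bound by FOS and JUN, in 2.77% and 4.98%, against 36% and 3.25% of all tested. Transcript GC content was also highest in the genes that rose, with a median of 53.7%. It was 49.8% in those that fell and 48.2% in the rest. The libraries differed in their own trend with GC content, as given above, and its part in these shares was not tested. After the correction for GC content and length, 1142 of the 1285 rises and 702 of the 714 falls were still called.

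The gene lists that follow were chosen with earlier results of these data known. Their shares are therefore descriptions and not independent evidence of a direction. Each count below stands beside the 7.39% higher and 4.11% lower of all genes tested. The exons of several list members share bases with another gene, among them CHD4 (5964 bases), DKK3 (5681), GFAP (2232) and F11R (1853), with the limit given above. Genes of the epithelial state had begun to move at 3 h, but E-cadherin itself had not passed the test. Of the 19 members of the pan-cancer epithelial signature that were tested, 8 (42.1%) were higher and 0 lower, with a median log2 fold change of 0.54 against 0.0034 over all genes. They were the receptor kinase gene ERBB3 (2.22 ± 0.26), the tight junction genes CGN (1.88 ± 0.23), CLDN4 (1.58 ± 0.22), OCLN (0.75) and F11R (0.54), the protease inhibitor SPINT1 (1.86), the lipid enzyme CDS1 (1.37) and the flippase ATP8B1 (0.61). CGN, which encodes the junction plaque protein cingulin, had 135, 199 and 204 reads in the controls and 611, 878 and 495 after SP. CLDN4, which encodes claudin-4, had 133, 174 and 176 against 385, 587 and 466. Of the 8, 6 were called in all 9 fits that left out 1 library, SPINT1 and F11R being the exceptions. In the mesenchymal signature 2 of 40 members were higher (DACT1 and PMP22) and 2 lower (CMTM3 and BNC2), with a median of 0.08. The mesenchymal shares, 5% each, were near those of all genes. When SP 3 h replicate 2 was left out, 6 epithelial members were higher, and in the mesenchymal signature 2 were higher and 0 lower.

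CDH1, which encodes E-cadherin, had 507, 1214 and 994 reads in the controls and 1272, 2148 and 907 after SP (0.67 ± 0.36, adjusted p = 0.289), so that the groups overlapped, and the interval still holds a rise of more than 2-fold as well as no change. Its value at 24 h, against the same controls, was 2.23 ± 0.37 (adjusted p = 0.00265). EPCAM, VIM, CDH2, TJP1, KRT18 and KRT19 also overlapped between the groups, with values of -0.07, -0.03, 0.10, 0.27, -0.10 and 0.13. Of 39 junction genes, 7 were higher and 1 lower: to the genes above were added PKP2 (0.92) and PPL (1.28), plaque proteins of the desmosome and the cornified envelope, and PKP3 fell by 0.39. These counts were 4 and 0 without SP 3 h replicate 2. None of 12 keratins and none of 10 alveolar type II genes passed the test by edgeR or by DESeq2, with 1 keratin lower and 2 alveolar genes higher at an unadjusted p under 0.05. The EMT score, the mean expression rank of the mesenchymal less that of the epithelial genes, was -0.035, -0.045 and -0.0049 in the controls and -0.075, -0.100 and -0.075 after SP, every treated library lying below every control. The mean rank of the epithelial genes was 0.550, 0.580 and 0.571 in the controls and 0.622, 0.652 and 0.615 after SP. That of the mesenchymal genes overlapped, at 0.515, 0.536 and 0.566 against 0.547, 0.551 and 0.540. The score uses the signature members counted above.

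Among transcription factors, some EMT-inducing and some epithelial factors rose, and other epithelial factors fell. SNAI1, a repressor of CDH1, went from 19.3, 33.1 and 42.1 to 182, 217 and 213 reads (2.66 ± 0.25, adjusted p = 0.000586), and its relative SNAI3 rose by 1.44. These were the 2 of 11 EMT-inducing factors that passed. ZEB1 had 848, 760 and 167 reads in the controls and 422, 243 and 918 after SP (-0.16 ± 0.65, adjusted p = 0.921), a spread within groups too wide to show a change. SNAI2 (0.37) and ZEB2 (-0.12) overlapped as well. Of 18 epithelial factors 3 rose, GRHL1, OVOL2 (2.27 ± 0.50, from 1.38 to 6.91 reads to 12.9 to 27.9) and KLF4 (0.53), and 4 fell, among them EHF and HNF4G (-1.27), a nuclear receptor gene. The shares of epithelial factors were 16.7% higher and 22.2% lower, against 7.39% and 4.11% of all genes. GRHL1 and EHF were called in all 9 fits that left out 1 library, and OVOL2, KLF4 and HNF4G in 7, 5 and 2. Among the epithelial factors 1 was higher and 2 lower without SP 3 h replicate 2, and 1 EMT-inducing factor was higher.

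Other genes that the study names moved from almost nothing. GPR4, a proton-sensing receptor, and SCUBE1, a secreted EGF-domain protein, had 0 reads in all 3 controls, and 30 and 14 reads in all in the SP 3 h libraries, which is at least 9.54-fold and 4.45-fold higher than a floor of 3 reads over the control group (adjusted p = 0.0356 and 0.0307). Their calls held in 2 and 3 of the 9 fits that left out 1 library. ESPN, an actin-bundling protein, had 1 read over the controls and 20 after SP, did not overlap and did not pass (adjusted p = 0.0649). ICAM1, an adhesion molecule of inflamed epithelium, rose by 1.82 ± 0.42, from 8.29, 9.65 and 13.7 reads to 64.4, 25.4 and 33.0. EP300, which encodes p300, had 796, 1596 and 2960 reads in the controls and 1812, 1736 and 631 after SP (-0.36 ± 0.48, adjusted p = 0.711). The propionyl-CoA carboxylase genes PCCA (0.01) and PCCB (-0.22), and ALDH1A1 (-0.13) and ALDH3A1 (-0.35), aldehyde dehydrogenases abundant in this line, did not pass either. The study chose several of these genes on libraries of this series, so the 6 of 22 that passed are not independent evidence of a direction, and without SP 3 h replicate 2 they were 3.

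**Figure D3:**
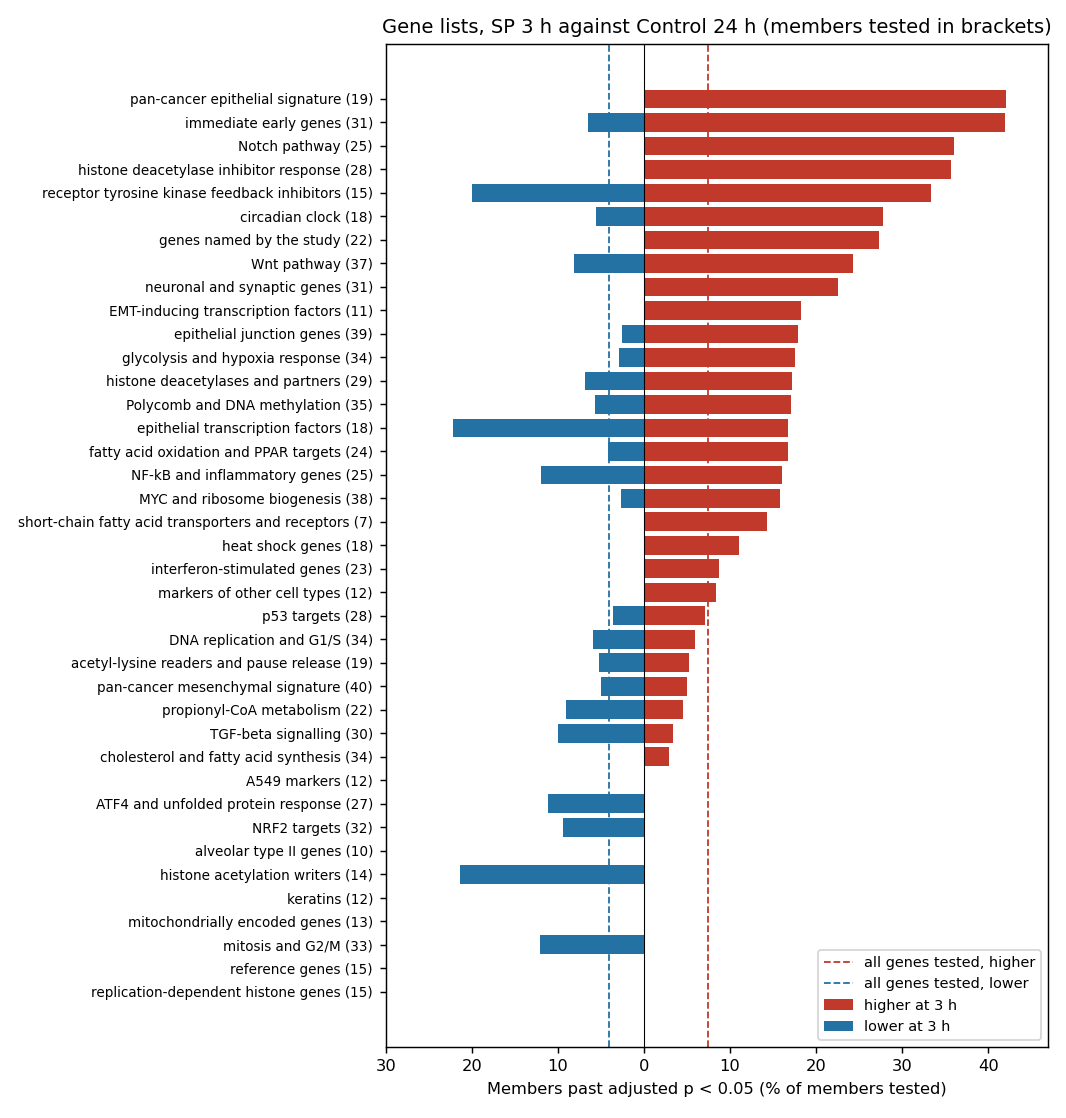
For each gene list, the percentage of its tested members (number in brackets) that were higher (red, to the right) or lower (blue, to the left) at 3 h at an adjusted p under 0.05. Dashed lines are the shares over all genes tested, 7.39% higher and 4.11% lower. The epithelial signature (42.1%), immediate early genes (41.9%), Notch genes (36%) and deacetylase inhibitor response genes (35.7%) reach furthest to the right. The lists were chosen with earlier results of these data known, so these shares are not independent evidence.

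Immediate early genes were among the most widely changed, with 13 of 31 higher (41.9%) and 2 lower, and a median of 0.32. FOSB, a subunit of the AP-1 factor, went from 4.15, 1.38 and 13.7 to 70.0, 81.3 and 48.9 reads (3.19 ± 0.49, adjusted p = 0.0036). The nuclear receptor genes NR4A3 and NR4A1 rose by 2.35 and 1.31, and ATF3, a stress-induced repressor, by 1.54 (55.3 to 96.1 reads against 219 to 234). EGR1 rose by 1.63 ± 0.43, with treated libraries at 62.6, 31.3 and 21.3 reads and controls at 8.27 to 13.7, and its call held in 1 of 9 fits that left out 1 library. The matrix protein CCN1 (1.05), the mRNA-decay factor ZFP36 (0.94), FOS (0.93), IER5 (0.85), MAFF (0.82), IER3 (0.78), the ERK phosphatase DUSP5 (0.74) and KLF4 (0.53) made up the rest. The phosphatase genes DUSP4, which was abundant (9420 to 11291 reads against 5450 to 6414), and DUSP6 fell by 0.80 and 0.59. Without SP 3 h replicate 2 the count of rises was 7 in place of 13.

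DUSP4 and DUSP6 also belong to the feedback inhibitors of receptor tyrosine kinases, where the movement went both ways. Of 15, 5 were higher (SPRED3 by 1.497, DUSP7, ERRFI1, DUSP5 and SOCS3 by 0.72 to 0.77) and 3 lower, the third being SPRY2, an inhibitor of ERK signalling that fell by 0.81 (561 to 655 against 319 to 385 reads). Among 25 NF-κB and inflammatory genes 4 were higher, ICAM1, TNFAIP3 (1.07), NFKBIE (1.42) and NFKBIZ (0.53), the last 3 of them feedback regulators of NF-κB, and 3 were lower, the IL-6 family cytokine LIF (-1.52 ± 0.21, 2150 to 3053 reads against 729 to 1040) and the chemokines CXCL2 (-0.998) and CXCL3 (-0.88). LIF thus fell together with CLCF1 of the same cytokine family. Of 30 TGF-β genes, SMURF2 was higher (0.71) and the ligand TGFB2 (-0.64), the co-repressor TGIF1 (-1.01 ± 0.10) and SMAD4 (-0.41) were lower. The TGF-β shares were 3.33% and 10%, against 7.39% and 4.11% of all genes. Of 23 interferon-stimulated genes 2 were higher, IFIT1 (1.75 ± 0.18) and OASL (1.22), a share of 8.7% that is near the 7.39% of all genes. Leaving out SP 3 h replicate 2 gave 2 higher and 2 lower feedback inhibitors, 3 and 1 NF-κB genes and 1 and 2 TGF-β genes. The calls of NFKBIZ, DUSP7 and SMAD4 were lost in 13, 11 and 10 of 19 alternative settings.

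Notch and Wnt genes had risen at several levels of each pathway. In Notch signalling a membrane ligand on 1 cell activates a receptor on its neighbour, and the cleaved receptor switches on repressors of the HES and HEY family. Of 25 genes tested 9 were higher (36%) and 0 lower, with a median of 0.72. The ligand genes DLL4 (2.94 ± 0.35, 11.03 to 20.1 reads against 95.7 to 153) and DLL1 (2.81 ± 0.40) rose, as did the targets HES7, HEY1 (2.73 ± 0.36) and HES2 (2.46 ± 0.38), the feedback inhibitor NRARP (2.08 ± 0.24, 91.0 to 165 against 423 to 558 reads), the ligand modifier LFNG (1.07) and the ubiquitin ligase genes DTX1 (1.56) and DTX4 (0.85). All but DTX1 and DTX4 were called in all 9 fits that left out 1 library.

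Of 37 Wnt genes 9 were higher and 3 lower (24.3% and 8.11%). Besides DACT3, the inhibitors DACT1 (2.06), NKD2 (1.58) and DKK3 (0.45), the ligands WNT11 (2.12) and WNT4 (1.05) and the receptors FZD4 (1.27), FZD9 (1.10) and FZD5 (0.66) rose. The secreted inhibitor DKK1, abundant in these cells, went from 8257, 5898 and 5807 to 2935, 2095 and 2501 reads (-1.41 ± 0.20, adjusted p = 0.00315), and WNT3 (-1.20) and FZD8 (-0.81) fell. Inhibitors, ligands and receptors were thus found on both sides. Over 19 alternative settings the call was lost in 13 for DKK3, 11 for FZD5 and 10 for FZD8. Of 31 neuronal and synaptic genes, 7 were higher and 0 lower: NGFR, the calcium sensor HPCAL4 (2.77), the adhesion molecule NRXN2 (2.16), the microtubule protein MAPT (1.98 ± 0.30, 55.3 to 125 reads against 298 to 441), the kinesin KIF1A (1.75), SYT5 (1.55) and the neurofilament NEFL (1.26 ± 0.16). Of the Wnt genes 6 were higher and 2 lower without SP 3 h replicate 2, and of the neuronal genes 4 were higher.

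Part of the genes known to answer to deacetylase inhibitors rose, and the enzymes of acetylation themselves went down or did not pass. Of 28 deacetylase inhibitor response genes 10 were higher (35.7%) and 0 lower, with a median of 0.39. Among them were the growth arrest genes GADD45G (4.22 ± 0.70, 0, 0 and 1.83 reads in the controls against 22.1, 17.8 and 11.7) and GADD45B (1.02), the cell cycle inhibitor CDKN1A (0.60, 1977 to 2300 reads against 2937 to 3522), KLF9 (1.33), KLF4, the thioredoxin-pathway gene ARRDC4 (1.62), the surface protein THY1 (1.15), the retinoic acid carrier CRABP2 (0.97) and TSPYL2 (0.69). The count was 5 without SP 3 h replicate 2. Of 14 acetyltransferase genes 0 were higher and 3 lower: KAT6B (-1.28 ± 0.15, 701 to 768 reads against 271 to 357), KAT7 (-0.93 ± 0.12) and KAT5 (-0.88 ± 0.14), the catalytic subunits of MYST-family complexes, each called in all 9 fits that left out 1 library. Of 29 deacetylase genes and partners, 5 rose, SIRT4 (2.27 ± 0.25), HDAC5 (1.21), SIRT7 (0.81), CHD4 and HDAC11, and MTA3 and SIRT5 fell. Without SP 3 h replicate 2 the counts were 2 and 0, and over 19 alternative settings the call was lost in 15 for HDAC11, 12 for HDAC5, 11 for MTA3 and 10 for CHD4.

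After these values were seen, the subunits of acetyltransferase complexes were listed, KAT5, KAT6B and KAT7 included, so that what follows describes a list chosen for its direction. Of 62 genes 0 were higher and 19 lower (30.6% against 4.11% of all genes), with a median of -0.31, and 16 of the 19 were called in all 9 fits that left out 1 library. Of TIP60 and its relatives, the scaffolds EPC1 (-1.47 ± 0.17, 573 to 724 against 220 to 255 reads) and EPC2 and the reader ING3 (-1.22) fell. Of the MYST complexes, the scaffolds JADE2 (-1.60 ± 0.14, 2953, 3152 and 3703 against 1248, 1032 and 952 reads), BRPF3 (-1.62 ± 0.24) and JADE1 (-0.67) and MSL1 (-1.07) fell. Of SAGA and ATAC, which carry GCN5 or PCAF, TADA1 (-1.13), SGF29 (-1.03), TAF6L (-0.97), TADA2A (-0.84), ATXN7L3 (-0.66), ATXN7L2 (-2.32) and KAT14 (-0.66) fell. With the correction for GC content and length, 28 of the 62 were lower. ING5 and MCRS1, a reader and a scaffold, were at -0.97 and -0.49.

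Among readers and silencers of chromatin, some genes were called in each direction. Of 19 acetyl-lysine readers and pause release factors, the elongation factor ELL rose by 0.99 and the bromodomain protein BRD2 fell by 0.72. Their shares, 5.26% each, were near those of all genes (7.39% higher and 4.11% lower), so nothing is read from them. Of 35 Polycomb and DNA methylation genes 6 were higher (17.1%), among them the Polycomb chromobox genes CBX7 (1.41), CBX2 (0.91) and CBX8 (0.45), the de novo methyltransferase DNMT3B (1.32 ± 0.16) and JARID2 (0.55), and PCGF1 and PHF19 (5.71%) fell by 0.56 and 0.74. Leaving out SP 3 h replicate 2 gave 3 higher and 1 lower, and the calls of CBX8 and JARID2 were lost in 7 and 9 of 19 settings. In the MYC network, the antagonists MXD1 (1.67 ± 0.21), MXI1 (1.51 ± 0.15) and MXD3 (0.49), their partner MAX (0.60) and the paralog MYCL (2.01 ± 0.21, 29.0 to 46.9 against 150 to 176 reads) were higher. The call of MXD3 was lost in 12 of 19 settings. The RNA polymerase I factor UBTF was lower (-0.67) and the subunit POLR1G higher (0.62), so that 6 of 38 MYC and ribosome biogenesis genes rose and 1 fell (15.8% and 2.63%), against 4 and 1 without SP 3 h replicate 2.

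Clock and metabolic genes contributed further early changes. Of 18 clock genes 5 rose, PER1 (1.75 ± 0.35, 169 to 404 reads against 666 to 1222), the output factors DBP (1.66 ± 0.21) and NFIL3 (1.16 ± 0.15), BMAL1 (0.67) and CRY1 (0.62), and BHLHE40 fell by 0.98. The clock shares were 27.8% and 5.56%, against 7.39% and 4.11% of all genes. In the fit without SP 3 h replicate 2, 2 clock genes rose and 1 fell. Clock transcripts also depend on the hour of collection and on medium changes, neither of which the labels give. Of 34 glycolysis and hypoxia genes 6 rose (17.6%), the glucose transporter SLC2A3 (1.30 ± 0.22), the hexokinases HK2 (1.13) and HK1 (0.67), NDRG1, PFKFB4 and ENO2, and ANKRD37 fell (2.94%), a call that did not hold without SP 3 h replicate 2. Of 24 genes of fatty acid oxidation and PPAR signalling 4 rose, among them ANGPTL4 (1.89 ± 0.25, 113 to 257 against 637 to 683 reads), PPARA (1.40 ± 0.27) and its coactivator PPARGC1A (1.44), and ACOT1 fell by 0.79, counts that were 2 and 0 without SP 3 h replicate 2. Of 7 transporters and receptors of short-chain fatty acids that were tested, the lactate exporter gene SLC16A3 rose (1.01 ± 0.12, 1198 to 1464 against 2380 to 3109 reads).

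Among the genes of propionate use the share called was near that of all genes (11.5%). Of 22 genes of propionyl-CoA metabolism 1 rose and the cobalamin-handling genes MMACHC (-0.73) and MMAA (-0.80) fell (4.55% and 9.09%, against 7.39% and 4.11% of all genes), none of them called in all 9 fits that left out 1 library, and the median was 0.01. Without SP 3 h replicate 2 the counts were 0 and 0. Of 34 genes of cholesterol and fatty acid synthesis ABCA1, the cholesterol exporter, rose by 0.82. In the stress programmes, 0 of 27 ATF4 and unfolded protein genes were higher and 3 lower (11.1%), ATF4 at -0.51, TRIB3 at -0.61 and NUPR1 at -1.01. Of 28 p53 targets 2 were higher (TNFRSF10B and CDKN1A) and MDM2 lower, shares of 7.14% and 3.57% near those of all genes (7.39% and 4.11%). Of 18 heat shock genes 2 were higher (11.1%), HSPA1A (1.03) and HSPA1B (1.29), near-identical copies whose reads cannot be told apart with certainty. No p53 target, heat shock gene or cholesterol gene was called without SP 3 h replicate 2, and 1 ATF4 or unfolded protein gene was lower.

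Of 32 NRF2 targets and regulators 0 were higher and 3 lower, each called in all 9 fits that left out 1 library. KEAP1, the adaptor that sends NRF2 to degradation, went from 3348, 3271 and 3472 to 1502, 1138 and 1163 reads (-1.41 ± 0.12, adjusted p = 0.000484), and OSGIN1 and the efflux pump ABCC2 were at -0.60 and -0.55. Of 33 mitotic genes 4 were lower (12.1%), CENPA (-0.84), AURKA (-0.70), PLK1 (-0.69) and UBE2C (-0.59), and 0 higher. In DNA replication and G1/S, the cyclin gene CCNE1 (0.60) and SLBP (0.55) were higher and E2F3 (-0.55) and E2F8 (-0.90) lower among 34 genes. The shares, 5.88% each, were near the 7.39% and 4.11% of all genes, and 0 of the 34 were called without SP 3 h replicate 2. None of 15 replication-dependent histone genes, 13 mitochondrially encoded genes, 15 reference genes and 12 A549 markers passed by edgeR, with 2, 1, 0 and 3 of them at an unadjusted p under 0.05, and DESeq2 called 1, an A549 marker that was lower. Among 12 tested markers of other cell types GFAP was higher (1.09), though not without SP 3 h replicate 2, and 2232 bases of its exons overlap CCDC103.

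Genes were also grouped by their level in an independent set, the Control 3 days libraries, into 6 bins of equal size. The median log2 fold change at 3 h of the edgeR fit fell from 0.19 in the lowest bin to -0.04 in the highest. The difference between these bins was tested on another measure, the difference between group means of log2 CPM. On that measure it was 0.20 (p = 0.1, two-sided exact permutation test over the 6 libraries). With bins set on Control 24 h the difference was 0.30 (p = 0.2, the same exact test), and 3 libraries against 3 cannot give a p under 0.1. The filter kept genes on reads in any group, so a gene low in the controls could enter through treated libraries alone. Its part in the positive median of the lowest bin was not tested. The number of genes called at least 2-fold higher fell along the bins from 236 to 183, 132, 52, 27 and 5. Of the 238 rises called at any size in the lowest bin, 236 were thus at least 2-fold. The share called higher at any size was 8.22%, 8.84%, 10%, 8.39%, 6.53% and 2.35% along the bins. Falls of at least 2-fold were spread differently, with 16, 38, 46, 37, 14 and 17 along the bins. In the lowest bin all 3 treated libraries stood above all 3 controls, at medians of 0.18 to 0.25 against -0.03 to 0.06, and in the highest bin the medians of the treated libraries were -0.05 to -0.02 against -0.04 to 0.03.

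**Figure D4:**
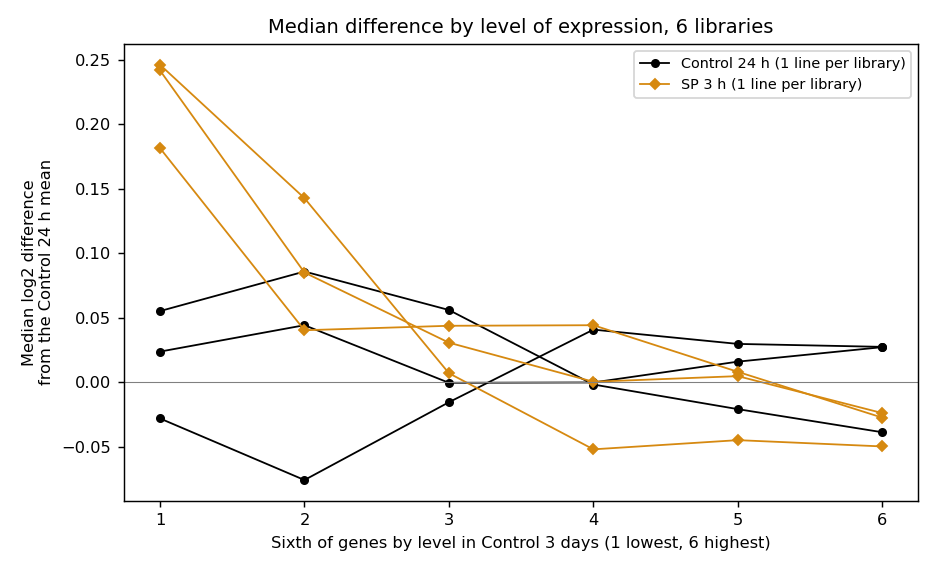
Median log2 difference of each library from the Control 24 h mean (y axis) in 6 equal groups of genes ordered by their level in the Control 3 days libraries (x axis). Black lines are the 3 Control 24 h libraries and orange lines the 3 SP 3 h libraries. The lines are apart in the lowest sixth, where the treated libraries are at 0.18 to 0.25, and overlap from sixth 2 on. Genes low in the controls could enter the test through treated libraries alone.

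The 24 h libraries share their controls with the 3 h libraries, so values are given side by side without a test of agreement, and the change between 3 h and 24 h was read from SP 24 h against SP 3 h directly. In that contrast 20.1% of all genes differed. Of the 30 genes that were the largest rises and falls or that were called in opposite directions, 19 differed, a count that the choice of the genes by these same values helps to fix and from which nothing is read. NGFR went on rising, from 4.47 at 3 h to 6.53 at 24 h, and DACT3 was lower at 24 h than at 3 h, 4.33 against 5.35. PRDM10 stood at -2.34 at 3 h and -0.11 at 24 h, with 288, 320 and 296 reads in the SP 24 h libraries against 278 to 354 in the controls. EHF, THBD, NRDE2 and PRDM15 likewise stood at -0.46 to -0.23 at 24 h, after falls of 1.74 to 1.88 at 3 h. LHX8, CLCF1, FBXL19-AS1 and EPC2 were still lower at 24 h, at -1.87, -1.52, -1.77 and -1.14.

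At 24 h, 16.8% of all genes were higher and 12.0% lower than in the controls, and in 27 genes the change called at 24 h was opposite to that called at 3 h. FAM83A, an adaptor of growth factor signalling, had 9.67, 9.65 and 10.98 reads in the controls, 3.68, 1.69 and 1.06 at 3 h and 35.9, 49.1 and 35.3 at 24 h. CYP24A1, the vitamin D hydroxylase and among the more abundant transcripts here, had 10374, 16971 and 19983 reads in the controls, 8788, 8499 and 5591 at 3 h and 30327, 31249 and 31643 at 24 h. DKK1 followed the same course, with 8475 to 13109 reads at 24 h, as did the pseudogene IGFL1P1 and the long non-coding RNA LINC00963. CXCR4, the chemokine receptor, went the other way, from 58.0, 59.3 and 39.3 reads to 103, 124 and 127 at 3 h and 15.8, 31.0 and 27.3 at 24 h. The call at 3 h held in 8 or 9 of 9 fits that left out 1 library in these genes, except in CYP24A1 (6) and LINC00963 (1).

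The 3 days libraries share no sample with the 3 h comparison. Of 1266 genes higher at 3 h and tested at 3 days, 872 (68.9%) were higher at 3 days and 44 lower, and of 707 genes lower at 3 h, 500 (70.7%) were lower at 3 days and 24 higher. Over all 16654 genes tested at both, 24.8% were higher and 24.3% lower at 3 days (25.2% and 23.3% of all genes tested at 3 days). The shared genes made up 21.1% of the 4130 rises and 12.3% of the 4055 falls at 3 days. Across these genes, which are not independent, Pearson's r of the fold changes was 0.57 and Spearman's rho 0.51. Individual genes kept different shares of their early change: DACT3 was at 7.84, NGFR at 6.97, GRHL1 at 2.26, SNAI1 at 2.80 and KEAP1 at -1.53 at 3 days, whereas FOSB (-1.25 ± 0.64, adjusted p = 0.144), PER1 (0.08), DBP (0.10), CYP24A1 (0.08) and HAS2 (-0.25) did not pass the test there. The 3 days comparison has controls labelled with the same time, and the 3 h comparison does not. Which part of the shared changes goes with the treatment was not tested.

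**Figure D5:**
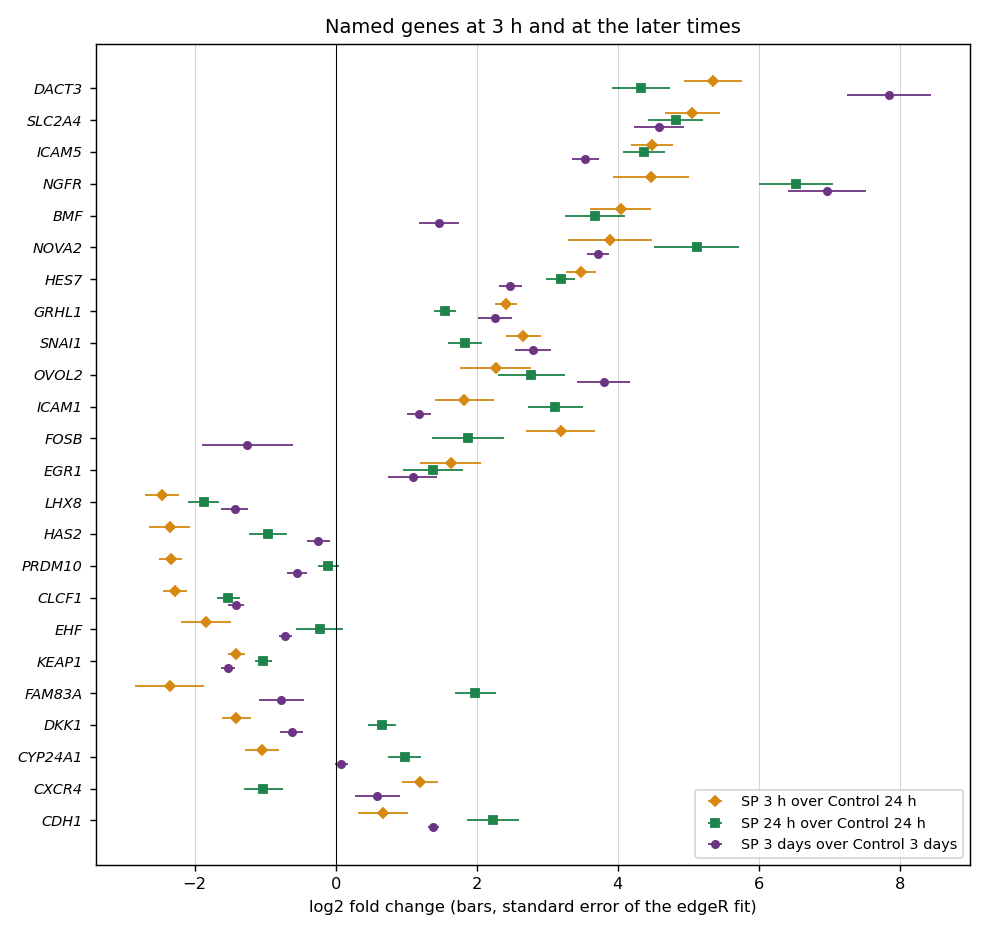
Log2 fold change (x axis) of 24 named genes at 3 h and 24 h of SP over Control 24 h and at 3 days over Control 3 days; bars are standard errors of the edgeR fit. DACT3, NGFR and GRHL1 are to the right of 0 at all 3 times, FOSB moves from the right of 0 to the left by 3 days, and FAM83A, DKK1 and CYP24A1 cross from the left of 0 at 3 h to the right at 24 h.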

How the data were processed

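Total RNA of A549 cells was sequenced from NEBNext Ultra libraries, per the labels. The authors aligned reads to GRCh38 and deposited whole-number read counts per gene; the submitters' processing notes name FastQC, STAR 2.7.9a, featureCounts, R 4.2.1 and DESeq2 1.36.0. The strand setting is not given in the sources used here. Counts of the 9 libraries of 1 table were fitted together in edgeR 4.0.16 (R 4.3.3, limma 3.58.1), with TMM factors, filterByExpr at a minimum count of 10 and the robust quasi-likelihood test, which leaves SP 3 h against Control 24 h as 1 contrast. "Higher", "lower", "rose" and "fell" mean a Benjamini-Hochberg adjusted p under 0.05. Per-library values are counts scaled to the mean effective library of the table. Assigned reads per library ran from 14187401 to 30553986 in the 6 libraries compared.

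Genes were named by rule: the 12 largest rises and falls past the test with a group mean of at least 100 reads and no overlap, the 10 smallest adjusted p, the genes the study names, members of fixed lists, and up to 6 genes called in opposite directions at 3 h and 24 h. The members and lists were chosen with earlier results of these data known. On simulated counts (17025 genes, 200 changed), edgeR recovered 58.2% of 2-fold, 77.6% of 4-fold and 93.9% of 8-fold changes, with 11 false calls. The simulated libraries had no trend with GC content or length, unlike the real ones, so these false calls do not measure the error in these data. Gene symbols and exons came from GENCODE, promoters from RefSeq. Alternatives were DESeq2 1.42.0, RLE and upper quartile factors, other filters, only the 2 groups, a GC content and length correction, a replicate block and leaving out each library. Some genes that meet the naming rule are not reported here; counts include them.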

Additional observations from a re-analysis of the deposited data

Results flagged for a closer look

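For the 30 genes with the largest rises and falls or with opposite directions at 3 h and 24 h, the difference between the times was tested as SP 24 h against SP 3 h (edgeR's quasi-likelihood test with Benjamini-Hochberg adjustment over all genes), and 19 differed. This contrast does not use the controls, and 20.1% of all genes differed in it. Genes that fell at 3 h were higher at 24 h than at 3 h, by 2.24 on the log2 scale in PRDM10, 1.61 in EHF, 1.57 in NRDE2, 1.44 in PRDM15, 1.40 in HAS2, 1.38 in THBD, 1.02 in KDM8 and 0.75 in CLCF1. FAM83A (4.33), IGFL1P1 (2.44), LINC00963 (2.13), DKK1 (2.07) and CYP24A1 (2.03), called in opposite directions at the 2 times, were also higher at 24 h, and CXCR4 (-2.23) was lower. Among genes that rose at 3 h, NGFR (2.06), CHRM4 (1.12) and PHOSPHO1 (0.71) were higher still at 24 h, and DACT3 (-1.02) and RAB3A (-0.88) were lower. The genes were selected for large values at 3 h, or, in the case of FAM83A, IGFL1P1, LINC00963, DKK1, CYP24A1 and CXCR4, for calls in opposite directions at the 2 times, so these differences restate the choice in part and are given as values only.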

How the results depend on the processing

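The cause of the changes below was not tested. Fitting only the 2 groups gave 624 genes higher and 349 lower, 411 of them at least 2-fold higher. Genes lower numbered 1127 by DESeq2, 1599 with the GC content and length correction and 1912 with that correction and the replicate block, and those at least 2-fold lower 285 and 283 under the last 2. Past the thresholds of the study were 297 higher and 118 lower by DESeq2, 309 and 99 without a filter, 56 and 36 with the correction, and 23 and 18 with correction and block. Leaving out 1 library gave 621 to 1509 higher, 320 to 700 lower, 375 to 748 at least 2-fold higher, 120 to 183 at least 2-fold lower and 0 past the thresholds of the study; the lowest counts were without SP 3 h replicate 2 and the highest without Control 24 h replicate 3. The difference between the lowest and the highest bin ran from 0.181 to 0.250.

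The replicate numbers did not pair the samples (correlations of deviations -0.0863, -0.0278 and -0.592), and the replicate block gave 1208 higher and 709 lower. For the named genes and list members that were called, each gene was counted separately in each setting. Of these values, 1888 kept direction and call and 144 lost the call under settings with all libraries, against 1450 and 395 when 1 library was left out. Values that changed sign belonged to genes that had not passed: KRT19 (-0.0649 with the correction, -0.0327 with the block too), PCCA (-0.00794 by DESeq2, -0.0117 and -0.00623 with RLE and upper quartile factors, -0.0301 with a stricter filter) and TJP1 at 3 days (0.000204 by DESeq2). Without 1 library the values ran from -0.0963 to 0.00626 in VIM, -0.736 to 0.216 in EP300, -0.842 to 0.192 in ZEB1, -0.365 to 0.104 in ZEB2, -0.0853 to 0.273 in CDH2 and -0.129 to 0.0862 in PCCA. Depth limits the genes with under 10 reads in the controls, whose values rest on few reads.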
